A study of Mus musculus with 3 samples.

Results

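These are the stretches of open chromatin that were called in undivided CBir1 T cells and in the host's polyclonal CD4+ T cells, but not in CBir1 T cells that had divided. Peaks of the 3 fractions on chromosomes 1 to 19 that shared at least 1 bp were merged into 55946 regions. A region belonged here when it held a peak of the undivided and a peak of the polyclonal library and none of the divided library. The members were chosen by these peak calls and numbered 2225, or 3.98% of all regions. In comparison, 3974 regions were shared by divided and polyclonal cells only, 2207 by both CBir1 fractions only, and 31886 were called in all 3 fractions. The calls and peak heights of the members are therefore a description, and what was left to compare is where they lie and which genes they lie next to. A region without a divided peak is not shown to be closed in divided cells.

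The assay was ATAC-seq, in which a transposase cuts accessible DNA and tags it for sequencing. CBir1 cells carry a transgenic T cell receptor for a flagellin of gut bacteria. Naive CD4+ CBir1 cells from transgenic spleens were loaded with CellTrace Violet, a dye diluted by each division, and transferred into 4 wild-type C57BL/6J mice. All recipients drank 2% dextran sulfate sodium (DSS), which injures the colon lining, for 7 days, and all were given 1 mg/kg FTY720, which holds lymphocytes in lymph nodes, on days 7, 10 and 13. On day 14 the colon-draining mesenteric lymph nodes gave 3 sorted fractions: CBir1 cells with diluted dye (divided), CBir1 cells with high dye (undivided), and the host's own CD4+ cells without the CBir1 receptor (polyclonal). The polyclonal fraction was sorted as a whole, so it may hold resting, effector and regulatory cells. In such bulk fractions, fewer cells with an open site and less opening per cell cannot be told apart. The age and sex of the mice and the donors' strain background were not given in the sources used here.

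Mature T cells that have not met antigen are kept quiescent by transcription factors such as FOXO1, BACH2, LEF1 and SATB1. When they are activated and divide, part of the resting enhancer set is known to close while effector enhancers open. Most enhancers lie in introns or between genes, whereas the promoters of expressed genes are open in nearly all T cell states. The fractions differ in more than division: undivided and polyclonal cells differ in their receptors, and the polyclonal cells were never transferred.

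There was 1 library per fraction, so differences could not be checked against replicates and p-values were not computed. Pools combined 2 mice, and duplicate pools are described, but how they entered each peak list was not given in the sources used here. Peak lists held 47963 divided, 41876 undivided and 44426 polyclonal peaks. Read totals were not given. The lowest local background recovered from the peaks was 1.21, 0.808 and 0.865 fragments, a depth ratio of about 1.5 for divided over undivided and 1.40 for divided over polyclonal cells. By this estimate, the library in which the members lacked a peak was the deepest of the 3. All 15 T cell identity genes, Cd3e and Cd4 among them, had a peak within 1 kb of a gene end in every library. Markers of other cells were mixed: Csf1r and Cd8a lacked a gene-end peak in all 3 libraries, while Cd79a, Cd14, Spi1, Xcr1, Cd8b1 and Klf1 had one in every library. From 1 to 5 genes of each of the 8 marker lists had such a peak in a library.

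Of 31365 RefSeq promoter windows (GRCm38.p6, 250 bases before to 50 after a start site), 59 lay under a member, and 36 of these belonged to protein-coding genes. The sequences shown are the 250 bases before the start for the 5 protein-coding promoters under the strongest members, and for Ccr9, the chemokine receptor of small-intestinal homing and the only gene of the migration list with such a window. Strength here is the lower of the undivided and polyclonal −log10 q-values. In each of the 6 cases the start site itself lay in the region. Capitals mark matches, on either strand, to any of 16 short motifs, spelled out after the sequences, and a match is a description of letters, not a bound site.
Ccdc9b, chr2:118762662-118762911, minus strand: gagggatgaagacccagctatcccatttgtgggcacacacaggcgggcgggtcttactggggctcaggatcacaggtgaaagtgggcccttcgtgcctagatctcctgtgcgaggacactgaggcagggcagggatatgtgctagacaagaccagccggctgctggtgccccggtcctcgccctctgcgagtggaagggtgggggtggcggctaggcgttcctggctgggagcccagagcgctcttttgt
Olig3, chr10:19356289-19356538, plus strand: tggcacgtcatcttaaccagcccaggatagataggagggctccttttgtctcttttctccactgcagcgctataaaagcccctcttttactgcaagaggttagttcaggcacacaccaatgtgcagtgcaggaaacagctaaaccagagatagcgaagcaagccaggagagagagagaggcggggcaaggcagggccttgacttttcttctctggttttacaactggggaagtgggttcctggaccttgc
Itgam, chr7:128062390-128062639, plus strand: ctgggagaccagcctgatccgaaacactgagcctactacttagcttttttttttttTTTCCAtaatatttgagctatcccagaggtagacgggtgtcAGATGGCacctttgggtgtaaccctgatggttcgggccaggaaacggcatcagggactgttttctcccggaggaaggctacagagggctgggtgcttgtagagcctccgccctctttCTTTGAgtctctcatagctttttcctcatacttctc
Cd151, chr7:141468539-141468788, plus strand: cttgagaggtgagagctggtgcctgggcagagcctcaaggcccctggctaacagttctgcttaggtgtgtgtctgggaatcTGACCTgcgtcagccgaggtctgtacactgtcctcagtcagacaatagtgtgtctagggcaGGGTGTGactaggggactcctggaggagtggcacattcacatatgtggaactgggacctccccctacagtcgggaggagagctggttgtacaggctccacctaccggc
Tmod4, chr3:95124264-95124513, plus strand: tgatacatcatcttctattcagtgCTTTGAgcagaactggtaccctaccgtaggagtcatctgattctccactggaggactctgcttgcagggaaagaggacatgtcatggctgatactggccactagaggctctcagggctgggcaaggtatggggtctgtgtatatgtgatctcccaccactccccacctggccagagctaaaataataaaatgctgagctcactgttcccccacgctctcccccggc
Ccr9, chr9:123766961-123767210, plus strand: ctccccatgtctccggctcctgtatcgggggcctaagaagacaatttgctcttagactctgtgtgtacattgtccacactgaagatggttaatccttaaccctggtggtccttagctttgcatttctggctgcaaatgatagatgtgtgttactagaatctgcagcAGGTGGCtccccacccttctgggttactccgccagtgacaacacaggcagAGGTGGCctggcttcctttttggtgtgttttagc

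Ccdc9b and Olig3 held none of the 16 motifs in these 250 bases. Olig3 encodes a basic helix-loop-helix factor of the developing nervous system, and its region had a summit pileup of 41 fragments in undivided and 31 in polyclonal cells. The Itgam sequence, upstream of the gene for the myeloid integrin CD11b, held a TCF/LEF, a CTCF core and an NFAT match under pileups of 14 and 22. Cd151, a tetraspanin gene, held a KLF and a ROR match (25 and 28 fragments), and Tmod4, a tropomodulin gene of muscle, held a TCF/LEF match (12 and 14 fragments). Ccr9 held 2 CTCF core matches under pileups of 23 and 16 fragments.

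The letters searched for AP-1 were TGANTCA, for ETS factors CCGGAA, for RUNX factors TGTGGT and for TCF/LEF factors CTTTGA. KLF factors were searched as CACACCC, FOXO factors as GTAAACA and the E-box as CAGCTG. The CTCF core was searched as AGGGGGC, and likewise as AGGTGGC and as AGATGGC. IRF letters were GAAANNGAA, the NFAT motif was TGGAAA, the NF-kB motif was GGNNTTTCC and the STAT motif was TTCNNNGAA. T-box factors were searched as AGGTGTGA, GATA factors as AGATAA, ROR factors as AGGTCA and NR4A factors as AAAGGTCA. NR4A matches contain the ROR letters, so these motifs overlap. KLF letters stood in 10 of the 59 windows under members (16.9%, Wilson 95% interval 9.48 to 28.5) and in 8.0% of all windows. RUNX letters stood in 23.7% against 16.7%, TCF/LEF letters in 20.3% against 15.9% and E-box letters in 22.0% against 16.3%. ETS letters, common in promoters that are open in most cells, stood in 10.2% of windows under members, 15.1% of all windows and 29.9% of the 11964 windows under regions called in all 3 fractions. NF-kB letters were in 0 of 59 windows, with an upper bound of 6.11%, against 5.87% of all windows. With 59 windows the intervals were wide, and of the 16 motifs KLF was the only one whose interval did not include the share over all windows. Windows under members had a median GC content of 52.0%, close to 52.4% for all windows, while windows under regions of divided and polyclonal cells only had 59.4% and those under regions of all 3 had 61.2%.

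Members were modest, narrow peaks that stood at nearly the same place and height in the 2 libraries that had them. Their median width was 400 bp (151 to 1586 bp), and 2199 of 2225 held exactly 1 peak from each library. The summit pileup, the number of fragments stacked at the peak's top, had a median of 12 in undivided and 12 in polyclonal cells, with quartiles of 9 and 18 in each library. The median −log10 q-value was 6.87 in undivided and 6.35 in polyclonal cells. Summits lay a median of 41 bp apart, 1671 pairs (75.1%) lay within 100 bp and 112 pairs were on the same base. Over the lowest background of its library, the undivided pileup was within 2-fold of the polyclonal one in 2063 members (92.7%). These agreements are partly fixed by the choice of members, since a weak peak must pass in each list.

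**Figure D1:**
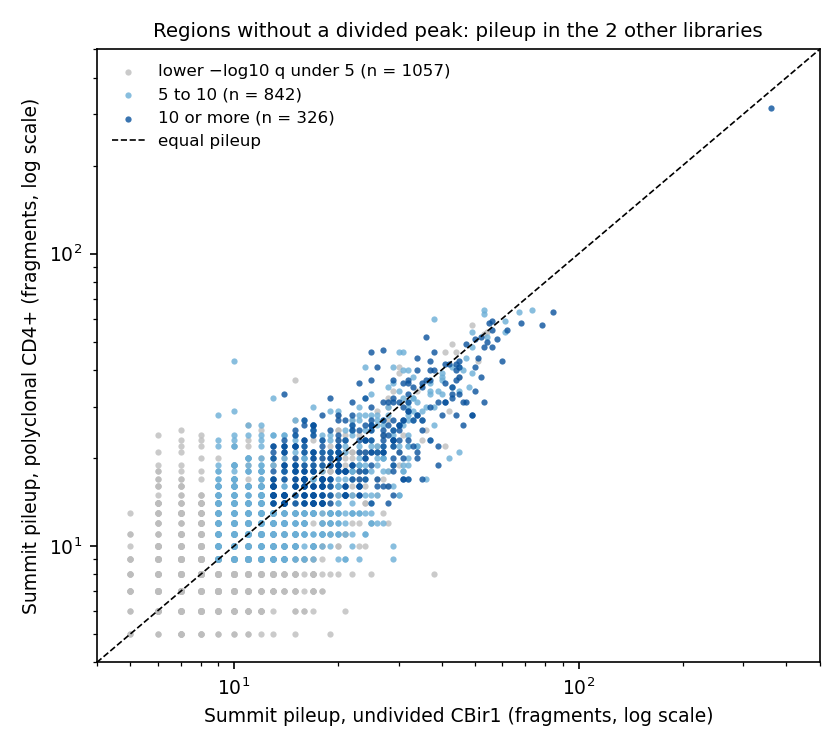
Summit pileup of each of the 2225 members in undivided (x axis) and polyclonal cells (y axis), in fragments on log scales, coloured by the lower of their −log10 q-values. Points lie along the dashed line of equal pileup, most under 20 fragments, and the Eea1 region stands alone at 362 and 315.

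A −log10 q of at least 5 in both libraries was reached by 1168 members (2.09% of all regions), of at least 10 by 326 (0.583%) and of at least 20 by 29. At the weak end, 61 members had a lower value under 2. The 3 members with the lowest values were near Rtkn (pileups 5 and 11, lower −log10 q 1.42), Patz1 (9 and 9, 1.40) and Btg1 (11 and 26, 1.37). Just outside the rule were regions called in all 3 fractions with the weakest divided peak. At Car3 the divided, undivided and polyclonal pileups were 6, 9 and 11, at a Bach2 region 6, 12 and 6, and at a Foxp1 region 8, 11 and 14, with divided −log10 q-values of 1.32, 1.32 and 1.44. Regions on either side of the limit thus had similar heights, and 30 regions of all 3 fractions had a divided −log10 q under 2.

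How many fragments a divided call would have taken was estimated for each member. For each member the lower pileup was scaled to the divided library and compared with the smallest pileup that could pass the weakest deposited divided p-value at the estimated local background. Scaled by the ratio of the lowest backgrounds, 99.3% of members (98.9 to 99.6) had enough fragments for a call. The smaller ratio seen in regions called in all 3 fractions (1.21 over undivided, 1.19 over polyclonal) left 96.0%, and no scaling left 89.0%. The median pileup needed was 7 fragments, and the median scaled by shared regions was 12.1. By that scaling, 819 members (36.8%) stood at least 2 times over the highest pileup without a call, and 29 stood at least 4 times over it. The minimum peak width of 150 bp, which a call also requires, did not enter this estimate. Since members were selected on passing in the other libraries, a high share follows in part from that choice. By the same shared scaling, 94.0% of regions of divided and polyclonal cells only had room for an undivided call, and 95.5% of regions of both CBir1 fractions only had room for a polyclonal call.

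**Figure D2:**
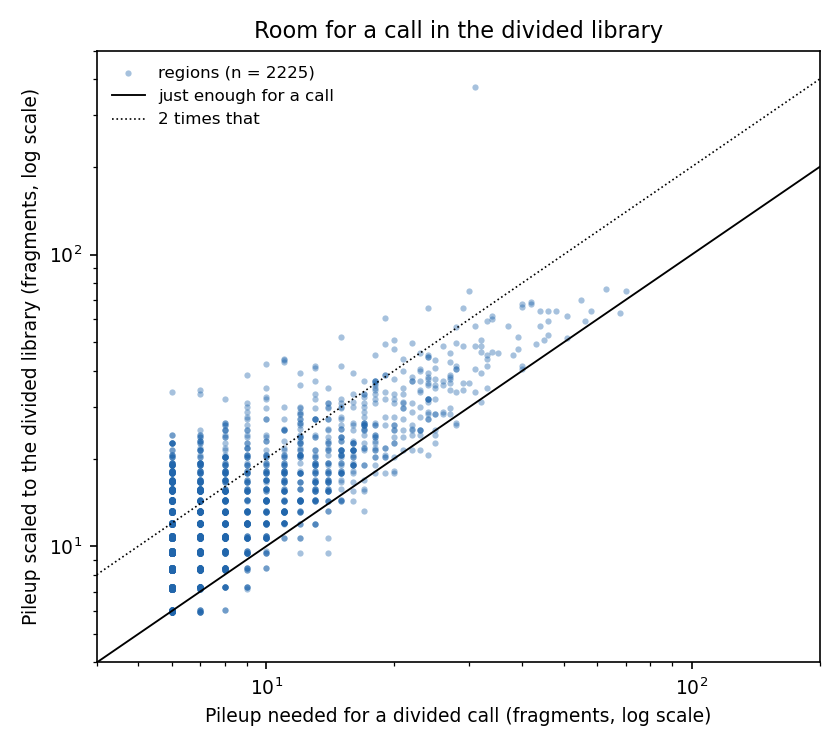
For each member, the estimated pileup needed for a call in divided cells (x axis) against its lower pileup scaled to the divided library by shared regions (y axis), in fragments on log scales. Of the 2225 points 96.0% lie on or above the solid line of just enough fragments, and the dotted line marks 2 times that.

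The members lay away from gene ends. A protein-coding gene's first or last base was within 1 kb of 178 members, 8.0% (6.94 to 9.20), against 10.4% (9.53 to 11.4) of regions of divided and polyclonal cells only, 11% (9.73 to 12.3) of regions of both CBir1 fractions only and 33.1% of regions called in all 3. Among members with a −log10 q of at least 10 in both libraries the share was 6.44% (4.25 to 9.65), against 10.5% (8.28 to 13.3) and 12.4% (8.97 to 16.9) in the same strength class of the other kinds. Overlapping intervals in that class leave the order of the kinds undecided there. The regions called in all 3 fractions were also wider, with a median of 781 bp, and wide regions meet the overlap rule more easily. Inside a protein-coding gene were 56.2% of members (54.2 to 58.3), against 59.1%, 57.1% and 69.3% of the other kinds in the same order. Exons and introns could not be told apart with the gene spans used.

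Divided cells often had another peak in the neighbourhood. The nearest divided peak was a median of 6376 bp away, within 5 kb for 957 members (43.0%) and within 500 bp for 161 (7.24%). Another member lay within 10 kb of 216 members (9.71%). The like shares were 12.7% of the 3974 regions of divided and polyclonal cells only and 6.34% of the 2207 regions of both CBir1 fractions only. Such a share depends in part on how many regions a kind has. The 2048 members with a protein-coding gene within 100 kb fell to 1626 genes, of which 1310 had 1 member, 236 had 2, 60 had 3 and 20 had 4 or more. Most genes with a member thus had a single site of this kind.

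The strongest member stood far above the rest. It lay 32099 bp outside Eea1, which encodes a tether of early endosomes, at chr10:96077617-96077880. Its summit had 362 fragments in undivided cells (−log10 q 394) and 315 in polyclonal cells (−log10 q 341), on the same base in both. The nearest divided peak was 26779 bp away, and an estimated 31 fragments would have been enough for a call. Scaled by shared regions its pileup was 12.5 times the highest pileup without a call. By height it ranked 83 of 39799 undivided and 103 of 42255 polyclonal regions, and the second member by strength, inside Picalm, ranked 14944 and 17219. The Eea1 region was 264 bp wide in both libraries. What this region is was not tested.

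The next strongest members were at genes of varied function, 3 of which are T cell regulators or receptors. Picalm, a clathrin assembly gene, had pileups of 44 and 37 in undivided and polyclonal cells (chr7:90150395-90150587, inside the gene), where 11 would have given a divided call. Nsmce1, of the SMC5/6 complex, had 41 and 36 at a site 15826 bp away. Cecr2, which encodes a bromodomain chromatin protein, had 28 and 31 where 6 would do, and its nearest divided peak was 52009 bp away. The polarity gene Pard3b had 32 and 29 where 7 would do, with the nearest divided peak 63473 bp away. Ppp1r21 (32 and 36) and the neural adhesion gene Chl1 (35 and 36) completed the non-lymphoid genes of the first 10. These sites were higher in relation to the estimated divided limit than most: 6.75 times for Cecr2, 5.75 for Pard3b, 4.82 for Ppp1r21 and 4.69 for Chl1, beside a median of 1.78 over all members.

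The lymphoid genes of the first 10 were Sgk1, Tox and Cxcr4. Sgk1, a kinase induced by glucocorticoid and salt, had pileups of 51 and 44 inside the gene (chr10:21975452-21975789), and a divided peak lay 377 bp away. Cxcr4, the receptor for the lymph node chemokine CXCL12, had 84 and 63 fragments at chr1:128602291-128603204, 9992 bp from the gene, with identical summits. The nearest divided peak was 695 bp away. At the adjoining region, called in all 3 fractions, the divided, undivided and polyclonal pileups were 26, 46 and 30. At the next region on the other side, also called in all 3, they were 83, 63 and 75. At the gene itself they were 130, 138 and 122. Of 12 regions assigned to Cxcr4, 9 had a divided peak and 11 each had an undivided and a polyclonal peak. The 3 members among them by rule add only to the last 2 counts. The rest were 8 regions of all 3 fractions and 1 of divided cells alone. The 2 members other than the strongest had pileups of 7 and 14 at 62571 bp and 9 and 6 at 83368 bp, and were weaker.

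Tox, which encodes an HMG-box factor of thymic CD4 development and of chronically stimulated T cells, had 5 members among 33 regions, all inside the gene. Its strongest member had 58 and 51 fragments (chr4:6975634-6976137), where 19 would have given a divided call. The next had 27 and 21, and 16 and 16 fragments. The remaining pair had 13 and 7, and 9 and 5, the last with a polyclonal −log10 q of 1.51. Each library had a peak in 24 of the 33 regions, and 14 of the 33 were called in all 3 fractions. The 5 members by rule add only to the undivided and polyclonal counts.

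Naive and quiescence genes, the T cell list with the most regions, held 25 members among 452 (5.53%, 3.77 to 8.04). The interval included the 3.86% of all 53055 regions with a gene within 100 kb. Of 20 genes, 10 had a member, and 15 of the 25 members had a −log10 q of at least 5 in both libraries. The median lower −log10 q was 5.88, against 5.28 for all members with a gene. At that stricter level the share was 3.32%, beside 2.09% of all regions, with or without a gene within 100 kb. No interval was computed for the 3.32%. Tcf7, Il7r, Klf2 and S1pr1, also on the list, had none.

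Bcl2, the survival gene, led this list with 5 members among 32 regions. The strongest had 29 undivided and 23 polyclonal fragments (chr1:106548854-106549336, inside the gene), where 10 would have given a divided call. The other 4 had 19 and 17, 17 and 9, 13 and 11, and 13 and 17. Divided cells had a peak in 22 Bcl2 regions, undivided cells in 24 and polyclonal cells in 21. Of the 32 regions, 13 were called in all 3 fractions. The 5 members by rule add only to the undivided and polyclonal counts.

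Bach2, a repressor of effector genes, had 4 members among 60 regions, led by pileups of 32 and 37 (chr4:32393281-32393529) and 25 and 26 (chr4:32328650-32329367). Another, inside the gene, had the highest pileups of the 4, 47 and 44, but over a high background, and 39 fragments would have been needed. Divided cells had a peak in 47 Bach2 regions, undivided cells in 41 and polyclonal cells in 42. The divided peak list was also the longest as a whole, with 47963 peaks against 41876 undivided and 44426 polyclonal. The 4 members by rule add only to the undivided and polyclonal counts. The forkhead gene Foxp1 had 4 members of 75 regions with pileups from 7 to 16. Btg1, an antiproliferative gene, had 3 of 31, the strongest at 25 and 21 fragments and 35324 bp away. Lef1, a partner of beta-catenin, had 3 of 36, with 32 and 27 fragments at its highest. Foxo1 had 2, and Ccr7, Ets1 and Satb1 1 each. The member at Ccr7, a chemokine receptor gene of lymph node entry, had 14 and 19 fragments and a divided peak 534 bp away.

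**Figure D3:**
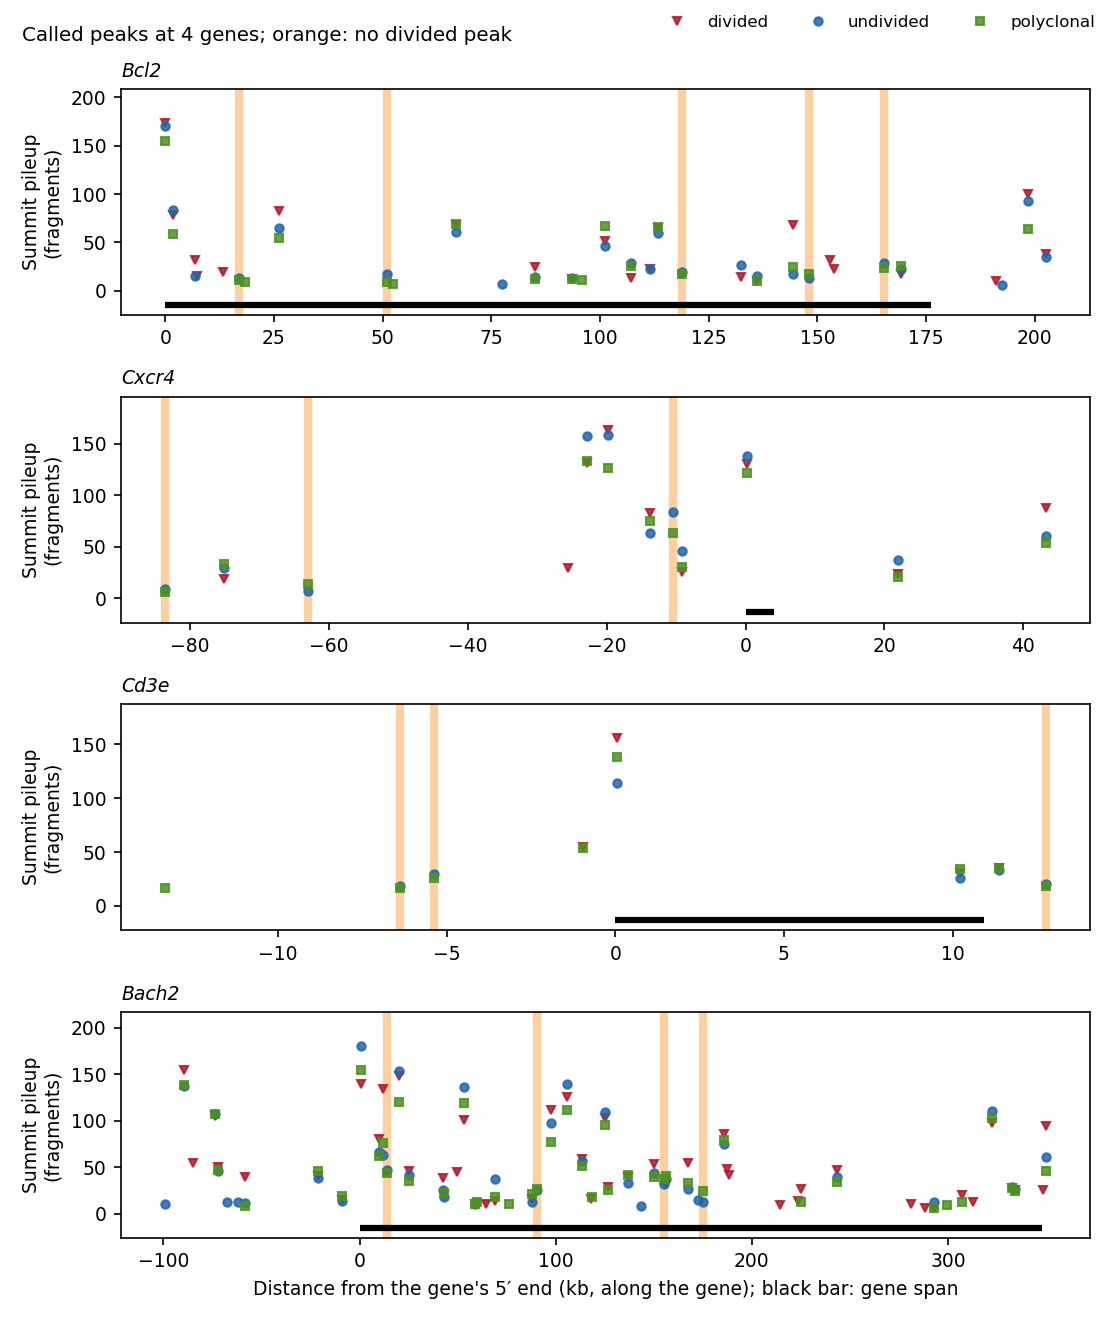
Summit pileup (fragments, y axis) of each called peak against distance from the gene's start in kb (x axis) at Bcl2, Cxcr4, Cd3e and Bach2, by library, with the regions that lack a divided peak in orange. At Bcl2 and Bach2 the orange sites stand between regions called in divided cells, at Cxcr4 and Cd3e some lie beyond them, and at the start of Cxcr4 the 3 libraries lie between 122 and 138.

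T cell identity genes held 10 members of 170 regions (5.88%, 3.23 to 10.5), with a median lower −log10 q of 7.59. The interval included the 3.86% of all regions with a gene. Cd3e, a signalling chain of the receptor complex, had 3 members among 8 regions. Its pileups were 30 and 26 at 5205 bp from the gene, 19 and 17 at 6250 bp, and 20 and 19 on the other side at 1681 bp. At the Cd3e start region, called in all 3 fractions, the divided, undivided and polyclonal pileups were 156, 114 and 138. The divided library, the deepest by the background estimate, was the highest there. Bcl11b, the T lineage commitment factor, had 68 and 58 fragments at a site inside the gene (chr12:107918860-107919101) where 42 would have given a divided call, and 29 and 23 at a site 98725 bp away. Cd2, an adhesion receptor, had 54 and 50 fragments at 9292 bp. Cd28 and Tcf12 had 2 members each.

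Th1 genes held 10 of 124 regions (8.06%, 4.44 to 14.2), beside 3.86% of all regions with a gene. Among the 16 T cell lists, this was the only interval that did not include that share. Counting only regions inside the gene, the Th1 share was 5.08%. Among the members were 3 at Eomes, 3 at Ifngr1 and 2 at Runx3, and none at Tbx21, Ifng or Stat4. Eomes, a T-box gene of cytotoxic and memory T cells, had 49 and 28 fragments at chr9:118390629-118391028, 87158 bp away, where 17 would have given a divided call. It had a second member of 20 and 18 fragments 296 bp from the gene and another of 16 and 19 at 1404 bp. Ifngr1, the interferon-gamma receptor gene, had 16 and 18 fragments at 69148 bp, 22 and 15 at 99855 bp and 18 and 18 at 7525 bp. Runx3, which silences Cd4 in the CD8 lineage, had 17 and 15, and 9 and 15.

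Eomes and Runx3 also stood on the list of CD8 T cell markers, of which 8 of 44 regions (18.2%, 9.51 to 32.0) were members: 3 at Eomes, 2 at Runx3, 2 at Cd8b1 and 1 at Cd8a. The Cd8a member, inside the gene at chr6:71376213-71377012, had 10 and 16 fragments, with the nearest divided peak 46072 bp away. The Cd8b1 members had 9 and 13, and 7 and 9. Over the 8 regions at Cd8a and Cd8b1, divided cells had a peak in 1, undivided cells in 5 and polyclonal cells in 7. The 3 members among them by rule add only to the last 2 counts. The rest were 1 region of all 3 fractions, 1 of undivided cells alone and 3 of polyclonal cells alone. In the region called in all 3, at Cd8b1, the pileups were 33, 51 and 63 in divided, undivided and polyclonal cells. That region is also the Cd8b1 gene-end peak, and the divided library was the lowest there although the deepest by the background estimate. Over the CD8 list, 3 of 6 genes had a gene-end peak in each library, with summed pileups of 181, 200 and 183, of which Runx3 gave 111, 112 and 89 and Eomes 37, 37 and 31. Cd8a, Gzmb and Klrk1 had none in any. The part of CD8 cells in the members at Eomes, Runx3 and the Cd8 genes was not tested.

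**Figure D4:**
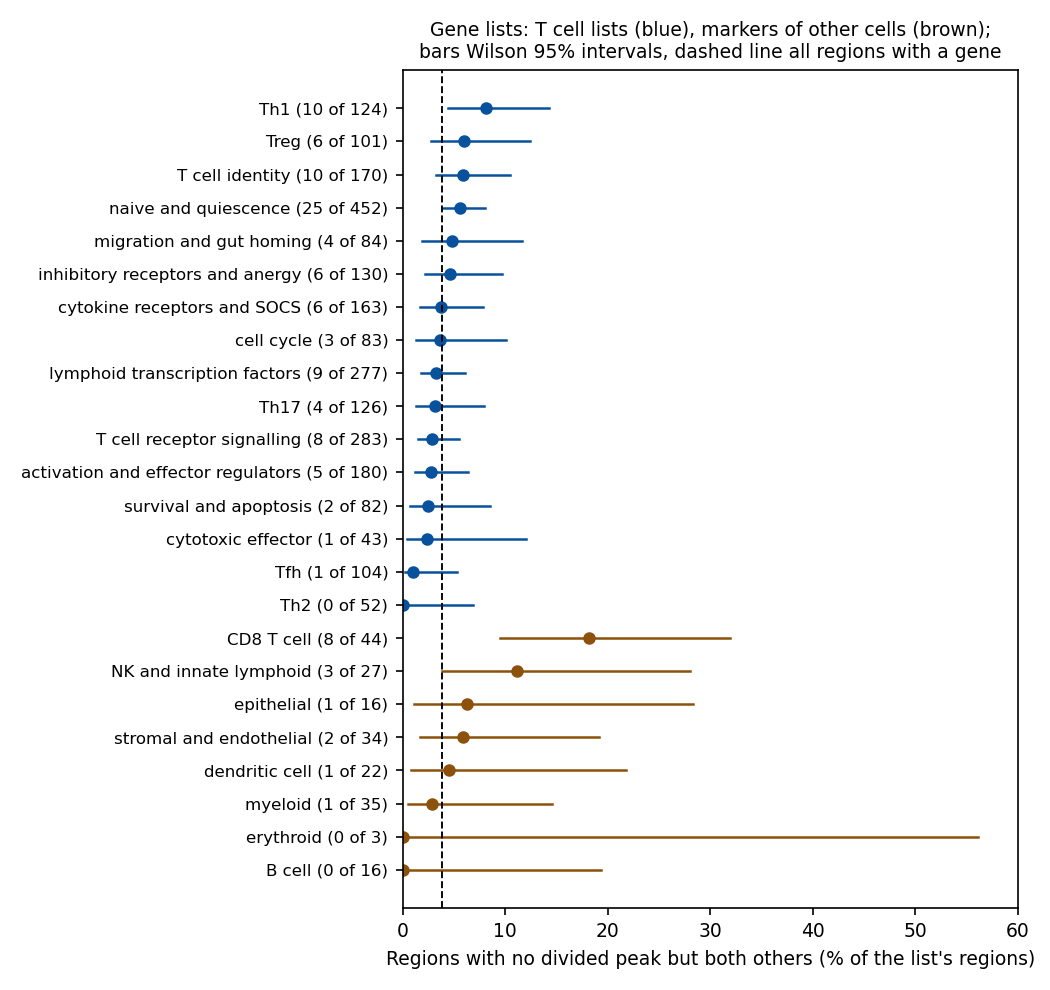
Share of each gene list's regions that were called in undivided and polyclonal cells but not in divided cells, with Wilson 95% intervals and counts in brackets. The dashed line is the 3.86% of all regions with a gene, and the CD8 T cell list stands highest at 18.2%.

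The other helper and effector lists lay on either side of the 3.86% of all regions with a gene, each with an interval that included it. Th2 genes had 0 of 52 regions (upper bound 6.88%) and Tfh genes 1 of 104 (0.962%), a site 21048 bp from the helper cytokine gene Il21 with 43 and 35 fragments. Th17 genes had 4 of 126 (3.17%, 1.24 to 7.88), at Il6st, Stat3, Batf and Rora, with −log10 q-values of at least 5 in both libraries in 2 of them. Cytotoxic genes had 1 of 43, at Crtam (10 and 12 fragments), and cell cycle genes 3 of 83, none with a −log10 q of at least 5 in both libraries. Activation regulators had 5 of 180 (2.78%), at Cd69, Fos, Fosl2, Id2 and Myc, each at least 2 times over the highest pileup without a divided call. The Myc member had 13 and 15 fragments at 34805 bp and the Fos member 12 and 15 at 37314 bp. Treg genes had 6 of 101 (5.94%), led by 2 sites inside Ikzf2, the Helios gene, with 21 and 11, and 13 and 16 fragments. The Ctla4 member had 17 and 30 fragments 456 bp from the gene, where an estimated 24 would have been needed.

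The remaining lists stood near the share of all regions. Inhibitory receptor and anergy genes had 6 of 130 (4.62%), of which 5 were at Tox. Migration genes had 4 of 84 (4.76%), 3 at Cxcr4 and the Ccr9 promoter region. Cytokine receptor and SOCS genes had 6 of 163 (3.68%), among them Jak1 with 24 and 17 fragments and the TGF-beta antagonist gene Smad7 with 37 and 37. Receptor signalling genes had 8 of 283 (2.83%), including Cd6, the adaptor Lcp2 and Malt1. Lymphoid transcription factor genes had 9 of 277 (3.25%), with Klf13 at 52 and 52 and Runx1 at 28 and 28 fragments. Survival genes other than Bcl2 had 2 of 82, at Tnfaip3 and Bcl2l11. Taken over all 16 lists, 100 of 2454 regions (4.07%, 3.36 to 4.93) were members, and 63 of 249 genes had at least 1.

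The other marker lists were short, with 3 to 35 regions each, and their intervals were wide. NK and innate lymphoid genes had 3 members of 27 regions (11.1%, 3.85 to 28.1), all at Eomes. Epithelial genes had 1 of 16 (6.25%), at Cdh1, stromal genes 2 of 34 (5.88%), dendritic cell genes 1 of 22 (4.55%), at Flt3, and myeloid genes 1 of 35 (2.86%), at Itgam. B cell and erythroid genes had 0 of 16 and 0 of 3. The Cdh1 member lay over an end (first or last base) of the E-cadherin gene. It had 16 and 23 fragments and its nearest divided peak was 29466 bp away. The only other gene of its list with a gene-end peak, Epcam, had 25, 28 and 26 fragments in divided, undivided and polyclonal cells. The part of such cells in these members was not tested.

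The 5 genes with 5 or more members were Tbc1d22a, Tox, Zfhx3, Bcl2 and Hecw2, and 15 genes tied at 4, among them Bach2, Foxp1, Chl1 and Slc4a4. Tbc1d22a, of a family of Rab GTPase regulators, had 6 of 23 regions, with pileups from 7 to 25. Hecw2, a ubiquitin ligase gene, had 5 of 19, the strongest 21 and 21 fragments. The homeobox gene Zfhx3 had 5 of 22, led by 25 and 30. Chl1 and the bicarbonate transporter gene Slc4a4 had 4 of 19 and 4 of 18. Divided cells had a peak in 14 regions of Tbc1d22a, against 18 and 21 in undivided and polyclonal cells, and in 11 of Zfhx3, against 15 and 16. The members by rule add to the undivided and polyclonal counts and not to the divided count. Outside its members, Tbc1d22a had 12 regions of all 3 fractions, 2 of divided cells alone and 3 of polyclonal cells alone. Zfhx3 had 7 of all 3 fractions, 3 of each fraction alone and 1 of divided and polyclonal cells only. Near gene ends, the strongest members were at Camk1g (29 and 27), Spesp1 (21 and 18), Ccdc9b, Olig3, Ly6k (16 and 21), Scn2b (27 and 24), Bcat2 (19 and 25) and Padi2 (52 and 38). Camk1g encodes a calmodulin-dependent kinase, Scn2b a sodium channel subunit, Bcat2 a branched-chain aminotransferase and Padi2 an arginine deiminase.

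By chromosome, the share of members was highest on chromosome 15. There 162 of 2620 regions (6.18%, 5.32 to 7.17) were members, against 3.87% (3.71 to 4.04) on the other autosomes, which ranged from 3.29% on chromosome 16 to 4.82% on chromosome 14. In 6 windows of 20 Mb along chromosome 15, the share ran from 4.29% (10 of 233 regions) to 7.18% (25 of 348). The lowest window lay within the range of the other autosomes. With a −log10 q of at least 5 in both libraries the shares were 3.21% on chromosome 15 and 2.03% on the other autosomes. The other pairs did not share the excess of chromosome 15. Regions of divided and polyclonal cells only made up 6.11% there and 7.15% elsewhere, and regions of both CBir1 fractions only 3.59% and 3.96%. In regions called in all 3 fractions on chromosome 15, the divided pileup was a median of 1.18 times the undivided and 1.17 times the polyclonal one, close to 1.21 and 1.19 over all autosomes. Chromosome 15 was singled out after its value was seen, and no cause was tested.

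**Figure D5:**
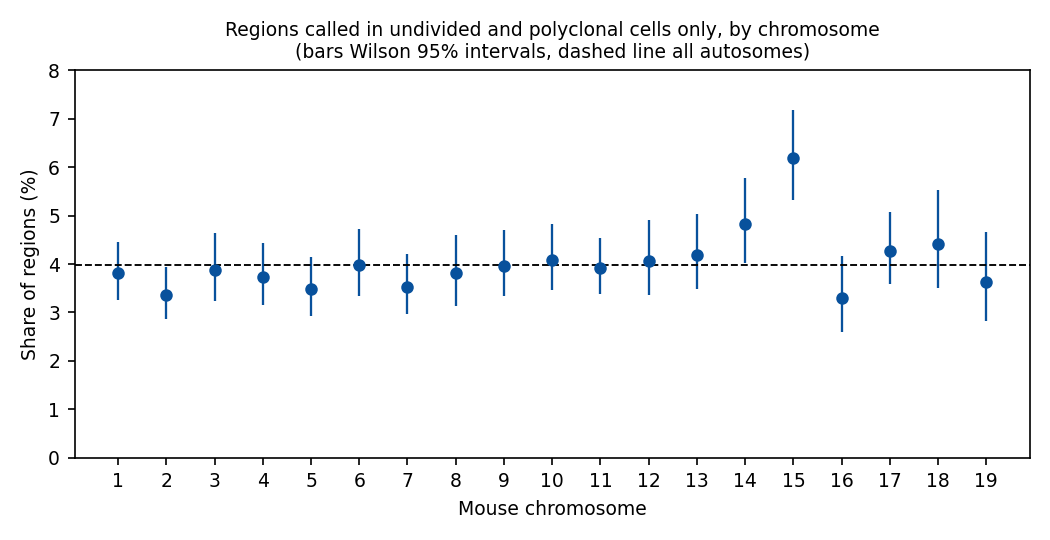
Share of each autosome's regions that were called in undivided and polyclonal cells but not in divided cells (y axis, percent), with Wilson 95% intervals, and the 3.98% of all autosomes as a dashed line. Chromosome 15 stands at 6.18%, and the others lie between 3.29% and 4.82%.

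The T cell receptor alpha locus held 21 members among 181 regions (11.6%), while 3.95% of regions outside it were members. The beta locus held 0 of 44 and the gamma locus 1 of 7. The locus was singled out after values were seen. Of the 21, 9 lay over a variable segment and 12 over none. Among the 9, Trav15-2-dv6-2 had 36 undivided and 37 polyclonal fragments (chr14:53649150-53649619), where 11 would have given a divided call, Trav14d-2 had 43 and 35, Trav14n-2 had 40 and 28, and Trav8-2 had 31 and 20. Trav15-3, a pseudogene in the table used, had 46 and 26. The 14 and 15 families have near-identical copies in this locus, and how reads that map to several copies were treated was not given in the sources used here, so the copy each peak belongs to is uncertain. Of the 181 regions of this locus, undivided cells alone had 28, divided cells alone 20 and polyclonal cells alone 17. Over all regions, these kinds made up 6.23%, 14.3% and 7.46%. Regions of undivided cells alone thus also stood above their share over all regions. Those of polyclonal and of divided cells alone lay nearer to theirs, and no intervals were computed for these counts.

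A microRNA gene was overlapped by 0.0449% of members, against 0.0755% of regions of divided and polyclonal cells only, 0.0453% of regions of both CBir1 fractions only and 0.295% of regions called in all 3. Of the hairpins in the RefSeq table, 7 lay within 1 kb of a member and 1, Mir6416, was overlapped, by a region assigned to Trpm1 with 11 and 13 fragments. A weak member with 6 and 7 fragments lay between the hairpins of Mir34b and Mir34c, 2 and 17 bp away, a family induced by p53. The 3p arms of that pair share their seed (bases 2 to 8, in capitals), and the Mir6416 arms are shown because their hairpin was the one overlapped.
mmu-miR-34b-3p: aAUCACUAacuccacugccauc
mmu-miR-34c-3p: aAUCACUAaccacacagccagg
mmu-miR-6416-5p: cUCCGUAUcaucugcucuucu
mmu-miR-6416-3p: gCAAAGAGcagcaaaaggaag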

How the data were processed

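ATAC-seq peak lists of 3 fractions were used, 1 library each, on mm10. Per the submitters' processing notes, reads passed through bcl2fastq 2.17, cutadapt 1.12, Trimmomatic 0.33, Bowtie2 2.3.2, Picard, SAMtools and MACS2 2.1.0. The setting of each tool, a shift of reads for the transposase included, was not given in the sources used here. Per peak, the deposited lists give a score (a whole number made from the −log10 q-value), a fold enrichment as a linear ratio, −log10 p and −log10 q, and a summit offset. The deposited summit lists repeat the −log10 q. Its lowest value was 1.31, 1.30 and 1.30 in divided, undivided and polyclonal cells.

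Peaks sharing 1 bp were merged with Python 3.11.15, pandas 2.3.3, numpy 2.4.6 and SciPy 1.17.1. Summit pileup and local background were recovered from fold = (pileup + 1)/(background + 1) and the Poisson −log10 p, within a tolerance of 0.001, for all members. The recovery and merging were tested on simulated data. Genes were the nearest RefSeq protein-coding spans (GRCm38.p6) within 100 kb, measured from the region's nearer edge. Spans carry no exons, and the RefSeq promoter table is not complete. The Wilson 95% intervals cover counting error only, and regions are not replicates.

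Regions were named by rule: the 10 with the highest lower −log10 q, up to 3 per list and up to 8 near gene ends by the same value, the 8 genes with the most members (ties broken by summed lower −log10 q), and the 3 members and 3 regions of all fractions nearest the call limit. Other members of the genes so named, the locus counts, the chromosomes, the receptor loci, the microRNAs and the highest ratios to the divided limit were added after values were seen. The members and lists were chosen with earlier results of these data known. Alternatives changed the overlap, threshold, windows, gene distance and scaling. The planned motif search around summits could not be made without a genome sequence. Some genes of the lists are not reported here.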

Additional observations from a re-analysis of the deposited data

How the results depend on the processing

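The count of members was 1168 with a −log10 q of at least 5 in both libraries, 326 with at least 10 and 1268 without a divided peak within 5 kb. It stayed between 1671 and 2291 under the other 5 alternatives: an overlap of 50% of the shorter peak, chromosome X added, a −log10 q of 5 in all 3 lists, no divided peak within 500 bp, and summits within 100 bp. The share near a gene end was 6.51% at a −log10 q of 5, 6.44% at 10, 3.37% with a 200 bp window and 22.1% with a 5 kb window. The share inside genes was 51.5% at a −log10 q of 10. The share with room for a divided call was 96.0% scaled by shared regions and 89.0% unscaled. Of 48 list alternatives, 34 stayed within the list's interval. With genes within 20 kb, Tfh was 0%, activation 0.794%, cytokine receptors 1.54% and survival 0%. Counting only regions inside the gene, Tfh, activation, cell cycle and survival were 0%, T cell identity 2.88% and cytokine receptors 1.00%. At a −log10 q of 5, naive and quiescence was 3.32%, cell cycle and survival 0% and receptor signalling 1.41%. No paired analysis was possible because each group is 1 library. Leaving out a library would end the rule itself and was not run, nor were the motif windows around summits. A missing call says only that no divided peak passed both the threshold and the minimum width. The pileup needed was estimated at about 7 fragments at a typical member, so a lower or a narrower signal could not be seen.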

Other observations

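On chromosomes X and Y, which were outside the rule, 67 further regions were called in undivided and polyclonal cells and not in divided cells. Of the 2225 members on the autosomes, 177 had no protein-coding gene within 100 kb and 2048 had one, as did 53055 of all 55946 regions. A long noncoding RNA gene was overlapped by 271 members (12.2%). The share was 11.4% for regions of divided and polyclonal cells only and 11.8% for regions of both CBir1 fractions only. It was 14.0% for regions called in all 3. Among the members that stood highest over the divided limit, some fell outside the 10 strongest. They were regions near Det1, a ubiquitin ligase component gene (34 and 28 fragments in undivided and polyclonal cells, 5.55 times the limit), inside Lrrc63 (20 and 28, 4.82 times) and near Fam53a (20 and 27, 4.82 times). These values were singled out after they were seen.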
